A study of Mus musculus with 6 samples.

Results

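The initiation and elongation factors of cytosolic translation were examined in mouse astrocytes, as the protein-coding genes whose symbol begins with Eif or Eef followed by a digit. The rule found 67 of the 17193 Ensembl gene identifiers listed for each library. The astrocytes came from brain tissue of C57BL/6 mice, wild type and 3 months of age, that had received Mock treatment (called saline in the study) or quinpirole, an agonist of the dopamine receptor DRD2, and there were 3 libraries per group. Cells were captured with microbeads against ACSA-2, an astrocyte surface antigen encoded by *Atp1b2*, and their poly(A) RNA was sequenced in paired-end reads. The labels gave neither the sex of the mice nor the number of mice behind a library, so the p-values below measure the spread between these libraries, which may in part be technical. The comparison of both groups asks which transcripts differed in astrocytes after a DRD2 agonist.

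Initiation factors bring the initiator tRNA, the small ribosomal subunit and the mRNA together, locate the start codon and join the ribosomal subunits. eIF2 carries the initiator tRNA, eIF2B recharges eIF2 with GTP, eIF3 is the scaffold on the small subunit, and the cap-binding factor eIF4E, the scaffold eIF4G and the helicase eIF4A form eIF4F. Elongation factors then deliver aminoacyl-tRNA (eEF1) and move the ribosome along (eEF2), while eIF4E-binding proteins and the eIF2 kinases are known brakes on initiation, and the mRNAs of many elongation factors and some initiation factors carry a pyrimidine tract at the start that places them under mTOR control.

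Values were FPKM, which are fragment numbers set relative to the length of the transcript and the depth of the library. Depth, estimated from the steps between the lowest values, was 22400000 to 27500000 fragments per library, and the tested member with the fewest fragments, *Eif4e3*, still had about 255 per library, a counting error of 6.26%. The astrocyte markers *Gfap* and *Aldh1l1* were high in all 6 libraries (482 to 560 and 165 to 182 FPKM), but the glutamate transporter *Slc1a2* was at 5.15 to 8.55 FPKM. Summed FPKM of 10 astrocyte markers ranged from 1489 to 1650 in Mock and from 1478 to 1508 in quinpirole libraries. *Slc1a2* and *Atp1b2*, 2 of the 10, fell (differences on the log2(FPKM + 1) scale of −0.42 and −0.19, limma adjusted p = 0.030 and 0.038), so the gene of the antigen used for capture was at 174 to 180 FPKM in Mock and 147 to 160 FPKM in quinpirole libraries. Lists of markers of other cell types gave lower sums, apart from the mural list. The sum of 6 microglia markers was 145 to 155 in Mock and 136 to 143 in quinpirole libraries, that of 6 neuron markers, nearly all from *Tubb3*, 17.6 to 19.7 and 20.5 to 23.6, with *Rbfox3* and *Snap25* under 0.1 FPKM, that of 7 oligodendrocyte lineage markers 6.63 to 7.70 and 6.33 to 6.71, with *Mog* under 0.1 FPKM, and that of 5 endothelial markers 7.36 to 7.43 and 5.90 to 7.15, nearly all from *Kdr* and *Flt1*, with *Pecam1* under 0.1 FPKM. The mural list of 3 genes summed to 2546 to 2715 in Mock and 2731 to 2902 in quinpirole libraries, almost wholly from *Acta2*, whereas *Pdgfrb* fell (−0.30, limma adjusted p = 0.023), and the ependymal list of 3 genes summed to 121 to 132 and 119 to 127, almost wholly from *Foxj1*. The part of these shifts in the results below was not tested. In bulk RNA a smaller number of cells of a type and less RNA per cell cannot be told apart.

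Elongation factors stood at the top of the members' levels, on the FPKM scale. *Eef1a1*, which delivers aminoacyl-tRNA, had 2030, 2258 and 2112 FPKM in Mock libraries 1 to 3 and 2205, 2421 and 2283 FPKM in quinpirole libraries 1 to 3, which was 34.1% to 36.3% of the FPKM of all 67 members together. *Eef2*, the translocase, followed with 776 to 803 FPKM in Mock and 804 to 821 FPKM in quinpirole libraries. Behind them came *Eif5a*, the hypusinated factor (mean 231 FPKM over the 6 libraries), and *Eif4a1* (208 FPKM). Of these neighbours, *Eif5a* and *Eif4a1* overlapped across libraries. In all, 12 members had a mean above 100 FPKM, and the median member had 32.0 FPKM compared with 11.4 FPKM for all tested genes. Some paralogues were at low levels. *Eef1a2*, the eEF1A form known from neurons and muscle, was at 5.25 to 7.23 FPKM and *Eif5a2* at 2.78 to 3.08 FPKM. In addition, 3 members were below the filter of a mean of 1 FPKM and were not tested, namely *Eif4e1b* (listed at 0 to 0.035 FPKM), the methyltransferase gene *Eef1akmt3* (0 to 0.143 FPKM) and *Eif4ebp3* (0.169 to 0.33 FPKM).

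**Figure D1:**
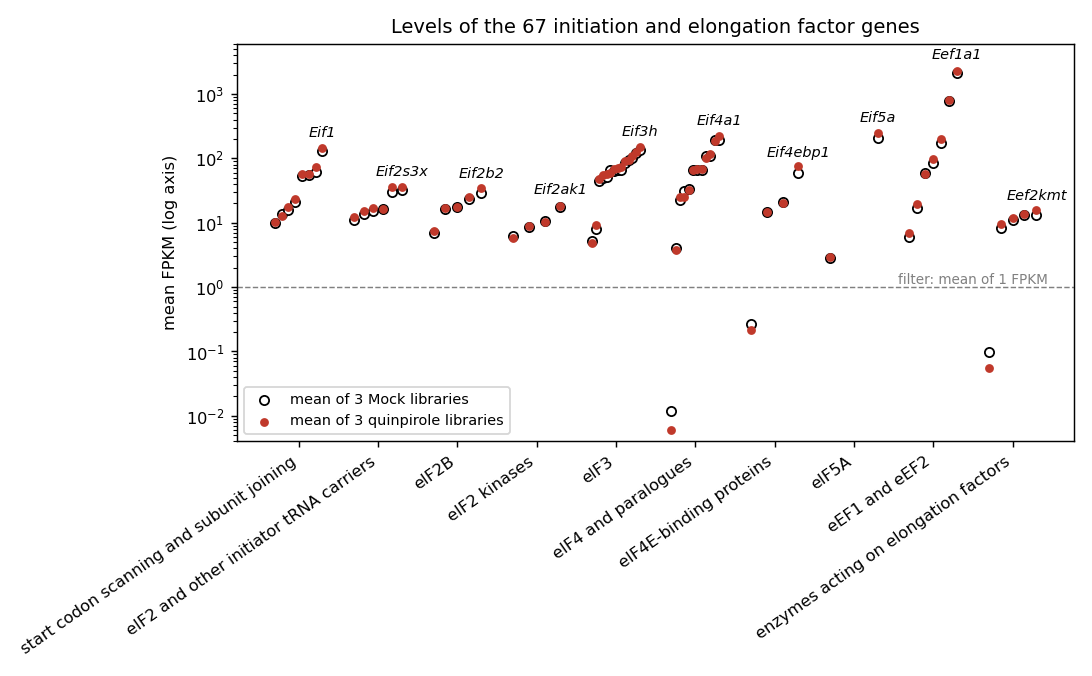
Mean FPKM (log axis) of the 67 genes by role, as open circles for the 3 Mock libraries and red points for the 3 quinpirole libraries, with the member of the highest level in each role named. Eef1a1 lies above 2000 FPKM, the dashed line marks the filter of 1 FPKM, and 3 genes lie below it.

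Of the 64 members tested, 12 passed the threshold (limma on log2(FPKM + 1), Benjamini-Hochberg adjusted p under 0.05 over 12255 genes), 11 of them higher and 1 lower after quinpirole. That was 18.8% of the members, compared with 10.9% of all tested genes. In the upward direction it was 17.2% compared with 5.74% of all tested genes, and in the downward direction 1.56% compared with 5.18%. The changes were small, from a rise of 10.3% (*Eif3h*) to a rise of 26.5% (*Eif4ebp1*) and a fall of 20.4% (*Eif4g3*) in mean FPKM. Mean differences were above 0 for 51 of the 64 members (79.7%), compared with 53.8% of all tested genes (after quantile normalization 67.2% compared with 52.5%), and the median difference was 0.10 on the log2(FPKM + 1) scale, compared with 0.02 for all tested genes. In 26 members every quinpirole library was above every Mock library (40.6%, compared with 20.0% of all tested genes), in 3 members every one was below (4.69%, compared with 16.9%), and in 35 the groups overlapped. After the correction for exonic length described below, 6 members passed, 5 higher and 1 lower. That was 9.38%, compared with 4.15% of all tested genes, and by direction 7.81% and 1.56%, compared with 2.09% and 2.06%. No member passed when Mock library 1, Mock library 2, quinpirole library 1 or quinpirole library 2 was left out, and 3 passed without quinpirole library 3. In the fits where none passed, 19 to 25 members had an unadjusted p under 0.05 in limma, as did 2891 to 3374 of the 12255 tested genes. With all libraries it was 27 members, or 42.2% compared with 31.3% of all tested genes.

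**Figure D2:**
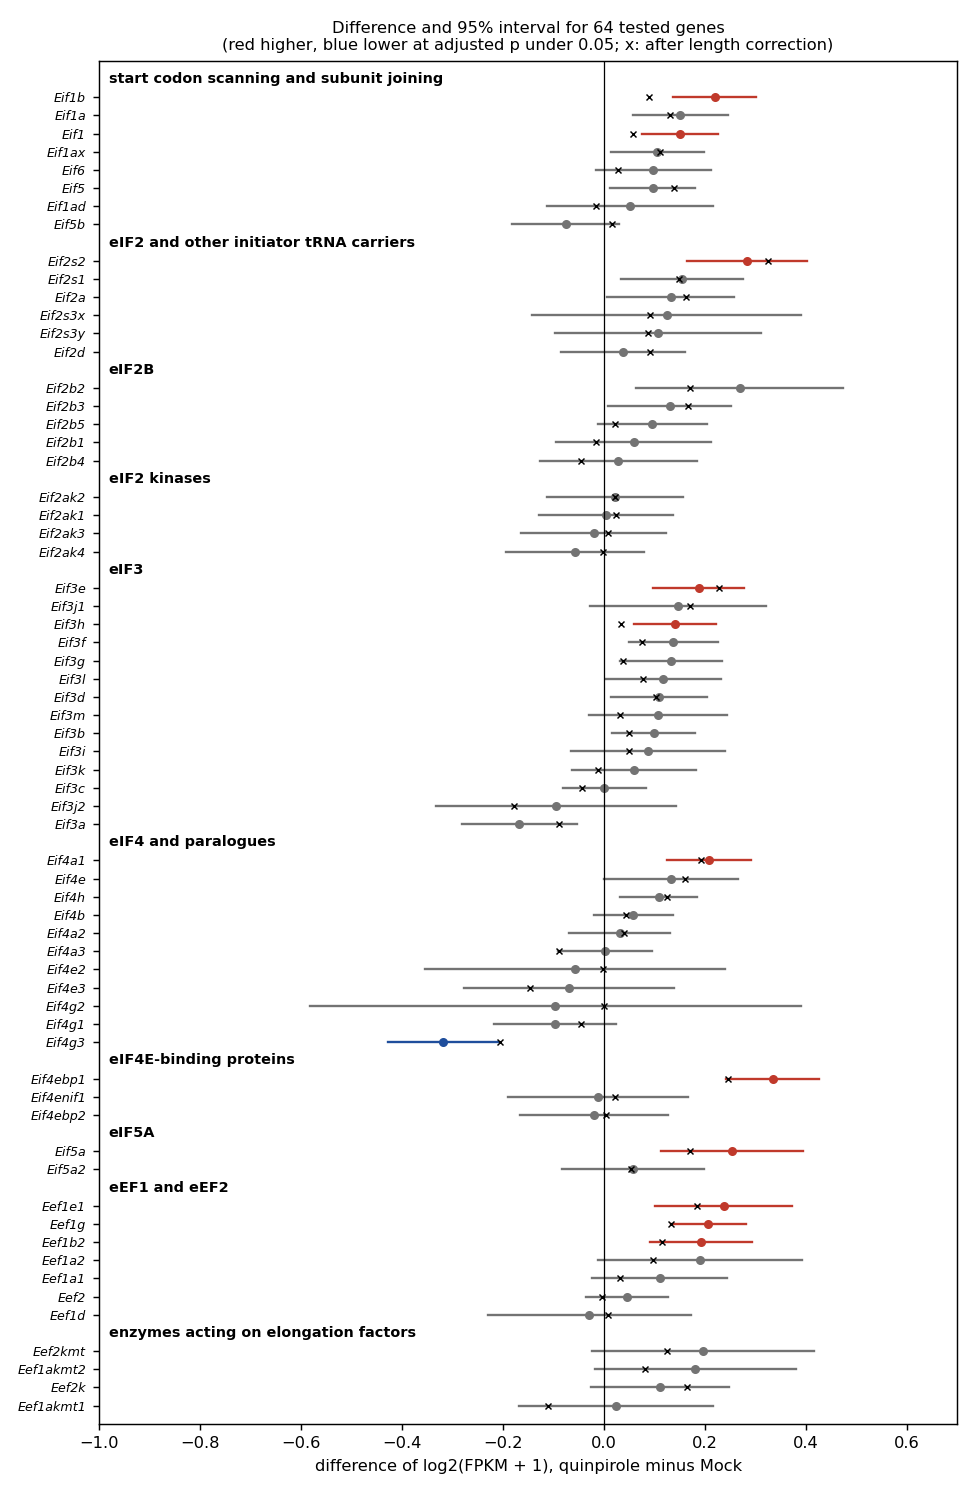
Difference in log2(FPKM + 1), quinpirole minus Mock, for the 64 tested genes by role, with the 95% interval from limma as lines and the value after length correction as crosses. The 11 red genes passed the threshold upward, the blue gene Eif4g3 passed it downward, and most grey points also lie right of 0.

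Among the factors that scan for and recognise the start codon, *Eif1* and *Eif1b* rose. *Eif1* (chr11:100319885-100322096, GRCm38, plus strand), which enforces stringent start codon choice, had 134, 129 and 132 FPKM in Mock libraries and 147, 146 and 146 FPKM in quinpirole libraries. All 3 quinpirole values lay above all Mock values, and the difference was 0.15 ± 0.03 (SE) on the log2 scale (limma adjusted p = 0.034). Its paralogue *Eif1b* (chr9:120492232-120495330, plus strand) had 60.4, 63.2 and 62.8 FPKM in Mock libraries and 72.1, 71.9 and 73.5 FPKM in quinpirole libraries. The groups were again apart, with a difference of 0.22 ± 0.03 (SE; limma adjusted p = 0.024). Neither passed after length correction, where the differences were 0.06 (limma adjusted p = 0.33) for *Eif1* and 0.09 (limma adjusted p = 0.23) for *Eif1b*. Both are short, 2098 and 1125 exonic nucleotides. *Eif1a*, a start codon scanning factor just outside the threshold, had a difference of 0.15 (limma adjusted p = 0.053). The subunit-joining GTPase *Eif5b* was one of the 3 members whose quinpirole values all lay below the Mock values, at 13.3 to 14.03 FPKM in Mock and 12.6 to 13.1 FPKM in quinpirole libraries, with a difference of −0.08 (limma adjusted p = 0.30). *Eif5b* has 9753 exonic nucleotides, and after length correction its difference was 0.016 (limma adjusted p = 0.83). *Eif6*, which keeps the large subunit from joining early, was at 52.6 to 55.4 and 55.2 to 61.6 FPKM, and its groups overlapped.

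Of the factors that carry the initiator tRNA, only *Eif2s2* passed the threshold, although all 6 means were higher after quinpirole. Of all tested genes 53.8% had a difference above 0. *Eif2s2*, the eIF2 beta subunit (chr2:154871410-154892935, minus strand), had 28.1, 29.5 and 31.6 FPKM in Mock libraries and 35.2, 36.7 and 37.2 FPKM in quinpirole libraries. Its groups were separate, and the difference of 0.28 ± 0.05 (SE; limma adjusted p = 0.025) became 0.32 ± 0.05 after length correction (limma adjusted p = 0.037). The alpha subunit *Eif2s1*, the one that the eIF2 kinases phosphorylate, was at 13.6 to 13.9 FPKM in Mock and 14.5 to 16.3 FPKM in quinpirole libraries. Its groups did not overlap, but the difference of 0.15 did not pass (limma adjusted p = 0.090). The gamma subunit is encoded on both sex chromosomes of the mouse. *Eif2s3x* was at 29.5 to 38.0 FPKM in Mock and 31.0 to 39.5 FPKM in quinpirole libraries, and the Y-linked *Eif2s3y* at 10.7 to 11.7 and 11.1 to 13.9 FPKM. Both groups overlapped for both genes, and *Eif2s3y* RNA was present in every library.

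The regulators of eIF2 gave no call in either direction in limma. For eIF2B, the exchange factor for eIF2, all 5 means were higher after quinpirole and none passed. Of all tested genes 53.8% had a difference above 0. After length correction *Eif2b1* and *Eif2b4* were below 0 (−0.016 and −0.046), and the median of the 5 went from 0.096 to 0.022. As fitted, an unadjusted p under 0.05 in limma was reached by 2 of the 5, compared with 31.3% of all tested genes. *Eif2b2* had the largest difference, with 28.3, 26.9 and 31.5 FPKM in Mock libraries and 30.8, 38.0 and 36.5 FPKM in quinpirole libraries. Quinpirole library 1 fell within the Mock range, and the difference was 0.27 ± 0.09 (SE; limma adjusted p = 0.086). The catalytic subunit *Eif2b5* was at 22.7 to 24.2 FPKM in Mock and 24.4 to 26.3 FPKM in quinpirole libraries (difference 0.10, limma adjusted p = 0.20). The 4 eIF2 kinases were all detected and overlapped between groups, with 0 at an unadjusted p under 0.05. *Eif2ak1*, the heme-regulated kinase, had the highest level of the 4 (16.6 to 18.8 FPKM in Mock and 17.3 to 18.6 FPKM in quinpirole libraries). *Eif2ak3*, which senses stress in the endoplasmic reticulum, was at 9.75 to 11.1 and 9.89 to 10.7 FPKM, *Eif2ak2*, the kinase activated by double-stranded RNA, at 8.42 to 9.19 and 8.50 to 9.28 FPKM, and *Eif2ak4*, which senses uncharged tRNA, at 5.94 to 6.42 and 5.64 to 6.14 FPKM. The widest of the 4 differences was −0.06 (*Eif2ak4*, 95% interval from limma −0.20 to 0.08).

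Of the 14 eIF3 genes, *Eif3e* and *Eif3h* rose and 12 means were higher. Of all tested genes 5.74% were called higher and 53.8% had a difference above 0. After length correction *Eif3c* (−0.044) and *Eif3k* (−0.011) were also below 0, and the median of the 14 went from 0.11 to 0.044. *Eif3e* (chr15:43250058-43282719, minus strand) had 49.0, 50.5 and 52.2 FPKM in Mock libraries and 57.6, 58.8 and 56.6 FPKM in quinpirole libraries. Its difference of 0.19 ± 0.04 (SE; limma adjusted p = 0.032) was 0.23 after length correction (limma adjusted p = 0.039). *Eif3h* (chr15:51786558-51865523, minus strand), the eIF3 gene with the highest level, had 133, 132 and 139 FPKM in Mock libraries and 147, 150 and 149 FPKM in quinpirole libraries. The groups were apart by 0.14 ± 0.03 (SE; limma adjusted p = 0.046), a difference of 0.03 after length correction (limma adjusted p = 0.46). *Eif3a*, the largest subunit, went the other way without passing, with 68.4, 68.6 and 64.7 FPKM in Mock libraries and 62.7, 56.4 and 60.2 FPKM in quinpirole libraries (difference −0.17, limma adjusted p = 0.066). All its quinpirole values lay below its Mock values, and when libraries were scaled to a common sum of FPKM it passed as lower. Under that scaling 1236 of all tested genes passed as lower and 220 as higher. *Eif3a* has 8731 exonic nucleotides, and after length correction its difference was −0.09 (limma adjusted p = 0.18). *Eif3f*, a core subunit, lay just outside the threshold on the upper side (difference 0.14, limma adjusted p = 0.058).

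Among the cap-binding complex and its relatives, *Eif4a1* rose, *Eif4g3* fell, and the other 9 tested genes did not pass. *Eif4a1*, the helicase subunit of eIF4F (chr11:69666936-69672423, minus strand), had 192, 193 and 193 FPKM in Mock libraries and 225, 228 and 215 FPKM in quinpirole libraries. The quinpirole values were all higher, by 0.21 ± 0.04 (SE; limma adjusted p = 0.025), and by 0.19 after length correction (limma adjusted p = 0.036). The closely related *Eif4a2* was at 63.9 to 68.9 and 66.9 to 70.3 FPKM, with overlapping groups and a difference of 0.03 (95% interval from limma −0.07 to 0.13). *Eif4g3*, a scaffold paralogue of eIF4G (chr4:137993022-138208508, plus strand), had 32.6, 32.2 and 30.3 FPKM in Mock libraries and 25.1, 24.3 and 26.2 FPKM in quinpirole libraries. It was the only member past the threshold downward, by −0.32 ± 0.05 (SE; limma adjusted p = 0.023), and by −0.21 after length correction (limma adjusted p = 0.038), and at 11063 exonic nucleotides it is long.

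The cap-binding protein *Eif4e* and the main scaffold *Eif4g1* did not pass. *Eif4e* had 23.3, 20.9 and 23.4 FPKM in Mock libraries and 25.1, 25.5 and 23.8 FPKM in quinpirole libraries. The quinpirole values were all higher, with a difference of 0.13 (limma adjusted p = 0.16). *Eif4g1* was at 102 to 118 FPKM in Mock and 102 to 103 FPKM in quinpirole libraries (difference −0.10, limma adjusted p = 0.24). *Eif4g2*, which lacks the eIF4E-binding region and serves cap-independent initiation, varied most between libraries of the same group among the 64 tested members. It had 237, 204 and 148 FPKM in Mock libraries and 238, 155 and 159 FPKM in quinpirole libraries, a coefficient of variation of 24.1% within groups compared with a median of 4.43% for the members. A 95% interval from −0.58 to 0.39 (limma) followed for its difference of −0.10, so that a change of the size of that of *Eif4g3* was not detectable. *Eif4e2*, a cap-binding paralogue, had 42.0 FPKM in Mock library 2 and 28.6 to 32.5 FPKM in the other 5 libraries.

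Of the eIF4E-binding proteins, *Eif4ebp1* rose, with the largest difference of the members past the threshold as fitted, although after length correction that of *Eif2s2* was larger. *Eif4ebp1*, which sequesters eIF4E until mTOR phosphorylates the protein (chr8:27260329-27276674, plus strand), had 58.05, 59.5 and 60.9 FPKM in Mock libraries and 72.5, 77.4 and 76.0 FPKM in quinpirole libraries. No values overlapped, and the difference was 0.33 ± 0.04 (SE; limma adjusted p = 0.023), or 0.24 after length correction (limma adjusted p = 0.027). Its paralogue *Eif4ebp2*, the form known as the main one in brain, had 22.8, 20.8 and 19.4 FPKM in Mock libraries and 19.9, 20.9 and 21.2 FPKM in quinpirole libraries. These overlapped, with a difference of −0.02 (95% interval from limma −0.17 to 0.13). *Eif4ebp1* supplied 71.6%, 73.9% and 75.6% of the FPKM of the 3 binding-protein genes in Mock libraries and 78.3%, 78.6% and 78.0% in quinpirole libraries. Per FPKM of *Eif4e*, the 3 genes together gave 3.59 ± 0.23 (SD, n = 3) in Mock and 3.88 ± 0.21 (SD, n = 3) in quinpirole libraries, ranges that overlapped (3.44 to 3.86 and 3.68 to 4.10).

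*Eif5a* rose and its paralogue did not pass. *Eif5a* (chr11:69916714-69921958, minus strand), which relieves ribosomes stalled at prolines, had 193, 220 and 221 FPKM in Mock libraries and 255, 258 and 242 FPKM in quinpirole libraries. Mock library 1 was lower than the other 2, all quinpirole values were above all Mock values, and the difference was 0.25 ± 0.06 (SE; limma adjusted p = 0.043), or 0.17 after length correction (limma adjusted p = 0.093). *Eif5a2* differed by 0.06 (limma adjusted p = 0.54).

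Of the 7 genes grouped with eEF1 and eEF2, where *Eef1e1* was placed by its name, 3 rose (5.74% of all tested genes were called higher). *Eef1g*, the gamma subunit (chr19:8967041-8978479, plus strand), had 171, 171 and 175 FPKM in Mock libraries and 197, 201 and 199 FPKM in quinpirole libraries. Its libraries varied by 1.26% within groups, and the difference was 0.21 ± 0.03 (SE; limma adjusted p = 0.023), or 0.13 after length correction (limma adjusted p = 0.042). *Eef1b2*, the exchange subunit (chr1:63176825-63180486, plus strand), had 83.1, 85.1 and 87.2 FPKM in Mock libraries and 94.9, 103 and 94.9 FPKM in quinpirole libraries. The groups were apart by 0.19 ± 0.04 (SE; limma adjusted p = 0.038), or 0.12 after length correction (limma adjusted p = 0.083). *Eef1e1*, an auxiliary subunit of the multi-tRNA synthetase complex named for its likeness to eEF1 (chr13:38644207-38659058, minus strand), had 16.4, 17.2 and 16.4 FPKM in Mock libraries and 18.5, 19.8 and 21.3 FPKM in quinpirole libraries. That was a difference of 0.24 ± 0.06 (SE; limma adjusted p = 0.045), or 0.19 after length correction (limma adjusted p = 0.11). *Eef1d*, the other exchange subunit, had 51.5, 60.6 and 67.1 FPKM in Mock libraries and 57.7, 58.5 and 58.4 FPKM in quinpirole libraries, so its groups overlapped (difference −0.03, limma adjusted p = 0.84, and 0.008 after length correction). The most abundant members did not pass, *Eef1a1* with a difference of 0.11 (limma adjusted p = 0.23) and overlapping groups, and *Eef2* with 0.05 (limma adjusted p = 0.41). *Eef2* quinpirole values were all above the Mock values, yet its direction depended on the scaling, with −0.13 after quantile normalization (limma adjusted p = 0.037). Of the enzymes acting on elongation factors, none of the 4 tested passed in limma (0 at an unadjusted p under 0.05). *Eef2k*, the kinase that inhibits eEF2, was at 10.4 to 11.7 FPKM in Mock and 11.4 to 12.3 FPKM in quinpirole libraries, and the methyltransferase gene *Eef2kmt* at 12.5 to 15.1 and 13.7 to 16.5 FPKM.

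**Figure D3:**
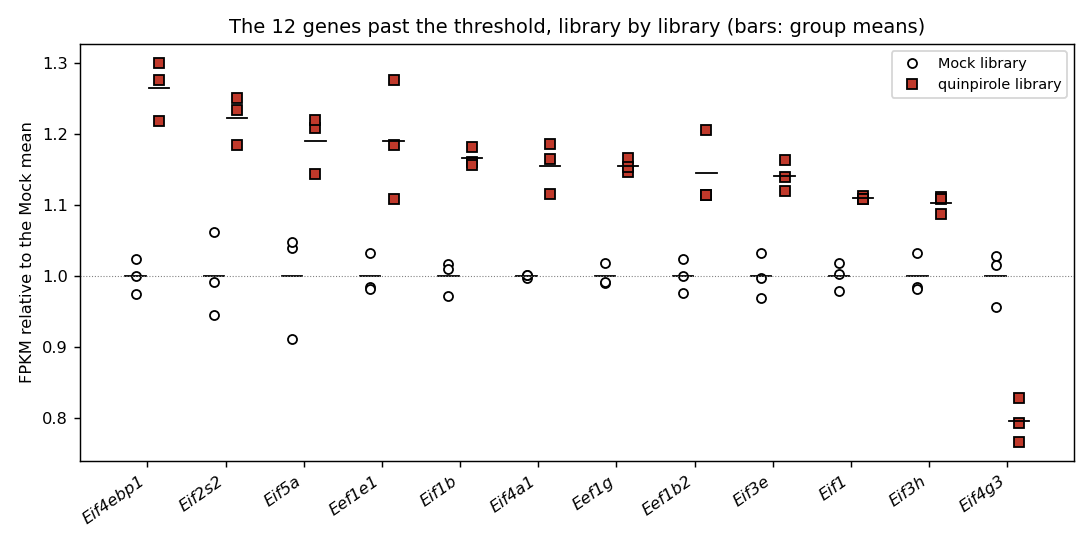
FPKM of the 12 genes past the threshold in each library, relative to the mean of the 3 Mock libraries (circles Mock, squares quinpirole, bars group means). No gene's groups overlap, Eif4ebp1 lies highest and Eif4g3 is the gene below 1.

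Dividing a library by 1 factor leaves the ratio of a pair of genes within it as it is, whereas quantile normalization does not, and 6 pairs of paralogues were compared in this way. *Eif4ebp1* to *Eif4ebp2* was 2.55, 2.86 and 3.14 in Mock libraries and 3.65, 3.70 and 3.59 in quinpirole libraries. *Eif4a1* to *Eif4a2* was 3.01, 2.80 and 2.81 in Mock libraries and 3.27, 3.25 and 3.21 in quinpirole libraries. In both pairs all quinpirole ratios were above all Mock ratios, with differences in log2 ratio of 0.36 and 0.18, and each gave a p of 0.1 in a two-sided exact permutation test, the smallest that 3 libraries against 3 allow (0.3 adjusted over the 6 pairs). This design cannot reach the threshold. A ratio is also not free of the trend with length described below. *Eif4ebp1* and *Eif4ebp2* have 2196 and 5784 exonic nucleotides, and after length correction their own differences were 0.245 and 0.0035. For *Eif4a1* and *Eif4a2*, with 4334 and 5338 exonic nucleotides, they were 0.19 and 0.04. The ratios of *Eif5a* to *Eif5a2*, *Eif3j1* to *Eif3j2*, *Eef1a1* to *Eef1a2* and *Eif4g1* to *Eif4g2* overlapped between groups, with differences of 0.18, 0.28, −0.11 and −0.00 and p of 0.3, 0.2, 0.7 and 1.0 in the same exact test.

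**Figure D4:**
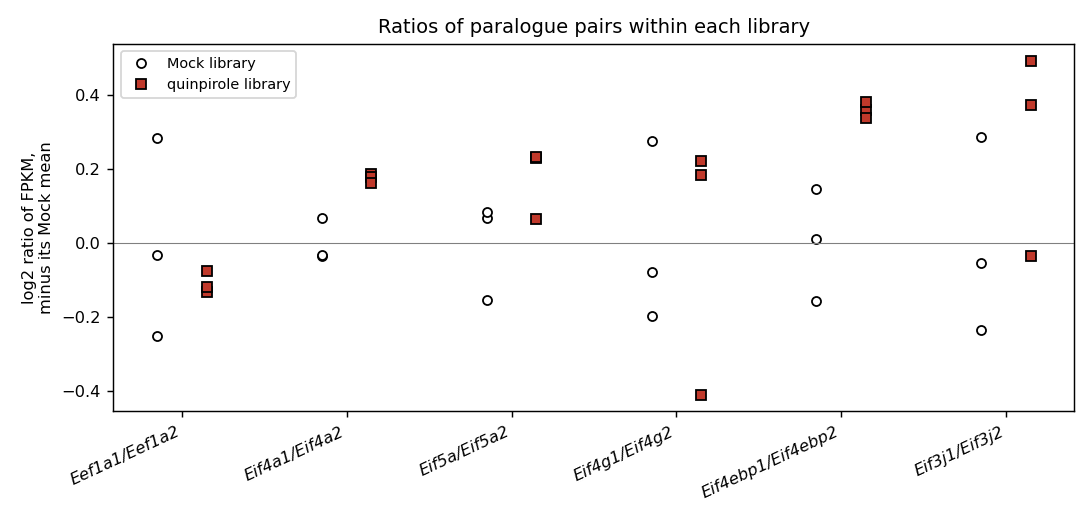
Log2 ratio of FPKM of 6 paralogue pairs in each library, with the mean of the 3 Mock libraries subtracted (circles Mock, squares quinpirole). The groups are apart for Eif4a1/Eif4a2 and Eif4ebp1/Eif4ebp2 and overlap for the other 4 pairs.

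Exonic length ran along with the direction of the differences. It counts the exons of all annotated transcripts of a gene together, so it can exceed the length of a single transcript. The length correction uses this measure. Across the 64 members, Spearman's rho between exonic length and the log2 difference was −0.44, and across all tested genes with a length (n = 12223) it was −0.47, where genes are not independent replicates and share the same 6 libraries. Of the 32 shorter members 30 had a higher mean after quinpirole (median difference 0.11), and of the 32 longer ones 21 (median 0.06). The 12 members past the threshold had a median length of 2566 nucleotides, compared with 3986 for the tested members and 4521 for all tested genes. When a smooth trend on length was removed from each library, rho over the members was 0.02 and the median difference of the members was 0.05, compared with 0.01 for all tested genes. *Eif4ebp1*, *Eif4a1*, *Eif2s2*, *Eif3e*, *Eef1g* and *Eif4g3* passed with and without the correction. The other 6 members past the threshold (*Eif1*, *Eif1b*, *Eif3h*, *Eef1b2*, *Eif5a* and *Eef1e1*) kept their sign, with limma adjusted p from 0.083 to 0.46. With quantile normalization in place of the length correction, *Eif4a1*, *Eif3e* and *Eef1g* did not pass (limma adjusted p = 0.15, 0.058 and 0.095). *Eif4ebp1*, *Eif2s2*, *Eif4g3* and *Eif1b* did pass with it.

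**Figure D5:**
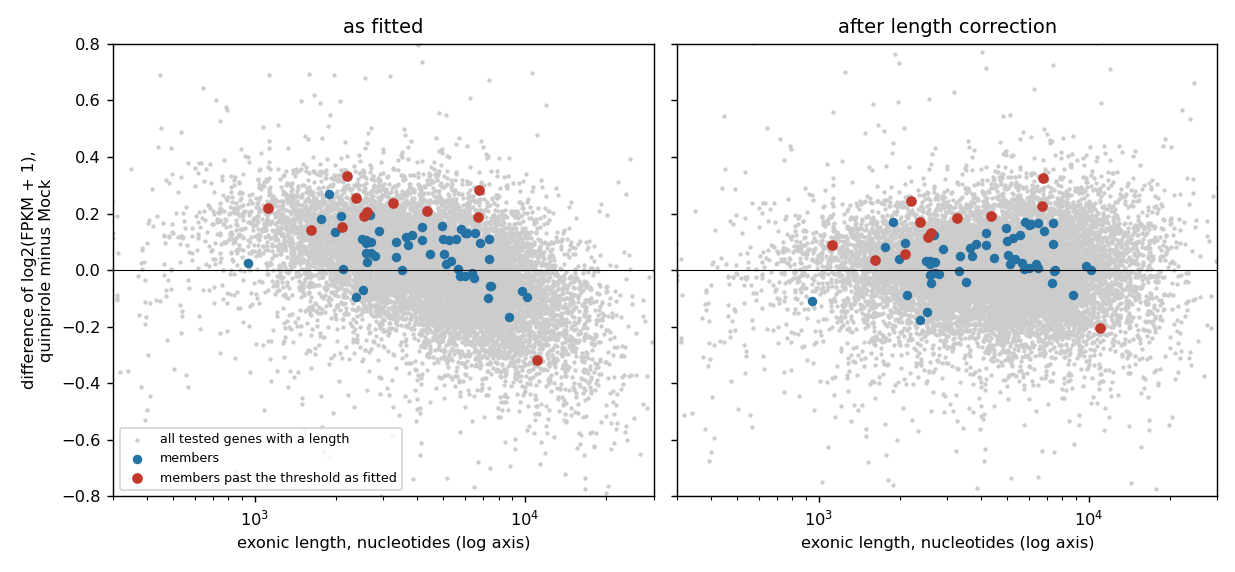
Difference in log2(FPKM + 1), quinpirole minus Mock, against exonic length (log axis) before (left) and after (right) removal of the length trend, for all tested genes (grey), members (blue) and members past the threshold as fitted (red). Short genes lie higher than long genes on the left, and the slope is gone on the right; grey points beyond the axis limits are not drawn.

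In the library totals the members shifted little. Their summed FPKM was 5957, 6216 and 6088 in Mock libraries and 6457, 6674 and 6423 in quinpirole libraries, and no values overlapped. The summed FPKM of all genes was also higher in quinpirole libraries (425200 to 437200, compared with 401800 to 413700). As a share of that sum the members made up 1.48%, 1.54% and 1.47% in Mock libraries and 1.51%, 1.53% and 1.51% in quinpirole libraries, and these overlapped. With every library scaled to a common sum, 37 of the 64 members had a difference above 0 (57.8%, compared with 35.4% of all tested genes) and 6 passed, 4 higher and 2 lower. Under that scaling 220 of all tested genes passed as higher and 1236 as lower, compared with 704 and 635 as fitted, and quantile normalization gave 283 and 500.

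Start sites of the members were searched in RefSeq promoters (GRCm38.p6, 250 bases before to 50 after the start), which were found for 51 of the 67 members and for 8 of the 12 past the threshold. The letters searched, on both strands, were CACGTG (the E-box read by MYC and related factors), TGACNNNGC (the core of the antioxidant response element read by Nrf2, the transcription factor that the study concerns) and GGGCGG (the GC box). CACGTG was in promoters of 12 of the 51 members (23.5%), compared with 11.9% of 9607 tested genes and 7.15% of all 32851 promoters, and in 3 of the 8 past the threshold. TGACNNNGC was in 11 of the 51 (21.6%), compared with 17.0% and 12.4%, and in 4 of the 8. GGGCGG was in 38 of the 51 (74.5%), compared with 70.6% and 35.7%, and in 5 of the 8. The windows of the members past the threshold that held either of the first 2 motifs, with that of *Eif4e*, are shown because they let the shared letters be read side by side. They are written 5′ to 3′ on the strand of the gene, with the match in capitals, first for CACGTG:
Eif1b: gtgcggacggtCACGTGgcggcggcgcgcg
Eif4a1: gatcgcctccgCACGTGtaaaggtgctggg
Eif5a: aggggcggggtCACGTGtgtgcgtcatccg
Eif4e: gacacgtccgtCACGTGggcaggagccggc
and then for TGACNNNGC, which in *Eef1b2* and *Eif5a* is on the opposite strand and so reads from its far end:
Eif1: cgtcaagcctTGACTCCGCcccccgaccaa
Eef1e1: tgccttgagcTGACTCCGCccctttcgcgc
Eef1b2: aaccctggccGCTAAGTCAatatggcggcc
Eif5a: ctggaaagggGCGGGGTCAcgtgtgtgcgt
The CACGTG windows lie at chr9:120492571-120492600 (plus strand), chr11:69672594-69672623 (minus), chr11:69921442-69921471 (minus) and chr3:138527193-138527222 (plus), in that order. The TGACNNNGC windows lie at chr11:100319836-100319865 (plus), chr13:38659109-38659138 (minus), chr1:63176647-63176676 (plus) and chr11:69921448-69921477 (minus). *Eif1* and *Eef1e1* share the letters TGACTCCGC, and in *Eif5a* the match overlaps both the E-box and a GC box. A second CACGTG in *Eif4e* and a second in *Eif5a* are not shown. No binding was measured here, and a match is a description of letters only.

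Of 58 other genes of translation, its signalling and the integrated stress response, 57 were tested, and 2 rose and 3 fell (limma adjusted p under 0.05). These 5 were 8.77% of the 57, near or below the 10.9% of all tested genes (higher 3.51% compared with 5.74%, lower 5.26% compared with 5.18%), and are given as single genes. *Rheb*, the GTPase that activates mTORC1, had 48.9, 48.3 and 49.6 FPKM in Mock libraries and 54.5, 61.7 and 57.8 FPKM in quinpirole libraries, a difference of 0.24 (limma adjusted p = 0.032), and 0.30 after length correction. *Mtrf1*, a mitochondrial release factor, rose by 0.32 (limma adjusted p = 0.036) from a low level of 1.91 to 1.97 FPKM in Mock libraries. The kinase gene *Mtor* itself had 16.6, 15.2 and 17.0 FPKM in Mock libraries and 13.4, 12.9 and 14.3 FPKM in quinpirole libraries, a difference of −0.25 (limma adjusted p = 0.045). *Larp1*, which represses mRNAs with a pyrimidine tract, differed by −0.19 (limma adjusted p = 0.043), and *Gcn1l1*, the activator of the kinase encoded by *Eif2ak4*, by −0.26 (limma adjusted p = 0.029). All these values lay apart between the groups. After length correction *Rheb* and the release factor *Gspt1* passed as higher and the ribosome rescue factor *Pelo* as lower, and *Mtor*, *Larp1* and *Gcn1l1* did not pass. No gene of the poly(A)-binding, hypusine and diphthamide, helicase or selenocysteine lists passed in limma. Of their 18 tested genes 5 had an unadjusted p under 0.05, which 31.3% of all tested genes had. In the integrated stress response list *Atf4*, the transcription factor translated when eIF2 is phosphorylated, was at 84.9 to 90.0 FPKM in Mock and 90.5 to 98.7 FPKM in quinpirole libraries (difference 0.11, limma adjusted p = 0.15). None of the 57 tested genes passed when Mock library 1, Mock library 2 or any quinpirole library was left out, and 3 passed without Mock library 3. In the former fits 14 to 18 of the 57 had an unadjusted p under 0.05 in limma, as did 2891 to 3580 of all 12255 tested genes.

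Some values rest on reads that other genes could share. Of the 50-base words in its longest transcript, *Eif3j2* shared 91.8% with other genes, *Eif4ebp3* 65.5%, *Eef1g* 64.3% and *Eef1a1* 59.2%. By this measure 9 members, among them *Eif4a1* (33.3%), *Eif1* (31.6%) and *Eif3h* (26.2%), shared at least 25%. How the authors assigned such reads is not given in the sources used here, so these levels are uncertain. The library kit does not mark strand, so reads of *Eif1b* could not be told from those of the antisense gene *D830035M03Rik*, which covers 12.7% of its exonic length, nor those of *Eif3d* from *Gm17638*, antisense over 43.3%.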

How the data were processed

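The authors isolated astrocytes, prepared poly(A) libraries with an unstranded kit, mapped paired-end reads to GRCm38 with TopHat2 (version not given in the sources used here), kept reads with at most 1 mismatch and deposited FPKM, 1 value for each gene in each library. The program and annotation behind FPKM are not given in the sources used here, and no counts were used, so depth was read from the step of 1 fragment between low values (53.3% to 61.8% of low values within 0.1 of a whole fragment).

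Symbols, positions and exonic lengths came from GENCODE M21 (GRCm38), with 17090 of 17193 identifiers matched, and promoter sequences from RefSeq. Groups came from the treatment label. Tests used limma 3.58.1 in R 4.3.3 on log2(FPKM + 1), with 12255 genes kept by a filter on the mean (1 FPKM or more) (lmFit, eBayes with trend, two-sided, Benjamini-Hochberg over all genes, threshold 0.05), so fold changes are on that scale and understate those of low genes. The length correction subtracted, in each library, a loess fit (span 0.3) of the deviation from the gene mean on log2 exonic length, which would also remove a true change related to length. A simulation in which 200 of 12255 genes were altered gave 190 recovered genes and 13 false calls. Recovery of differences as small as those reported here was not tested, so these counts do not give the power for them. Other steps ran in Python 3.11.15 (pandas 2.3.3, numpy 2.4.6, matplotlib 3.10.9, scipy 1.17.1).

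Genes named were every member past the threshold, a set fixed by role (such as the eIF2 kinases, eIF4F, the eIF4E-binding proteins and eEF1A), the highest member of each role and pathway genes past the threshold, and further members with values near the threshold, with wide spread or at low levels were chosen after their values were seen. The members and lists were chosen with earlier results of these data known. Alternatives were the pseudocount, the filter, the scaling, the estimate of spread, the length correction, a replicate block and the omission of each library. Scaling to a common sum of FPKM, and the omission of libraries with length correction, were added after seeing the data.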

Additional observations from a re-analysis of the deposited data

How the results depend on the processing

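Of the values of 38 named genes under all alternatives, 411 of 606 kept their direction and side of the threshold, 167 no longer passed and 28 changed sign. For the 12 members past the threshold none of 192 values changed sign, and 115 no longer passed. The count of 12 members (11 higher, 1 lower) became 6 (4 and 2) with scaling to a common sum of FPKM, 5 (3 and 2) with quantile normalization, 6 (5 higher) without trend and 6 (5 higher) with length correction, and without a filter 7 were higher. With a common sum the genes past the threshold went from 1339 to 1456 of 12255, and the members from 12 to 6 of 64. Of all tested genes 220 were then higher and 1236 lower, and of the members 4 and 2. Over all genes the count of 1339 became 633 without a filter, 783 with quantile normalization, 714 without trend and 509 with length correction. The 5 pathway genes became 1, 3, 2 and 3 under these 4 settings. The members' median of 0.10 became 0.022 with a common sum, 0.048 with quantile normalization and 0.049 with length correction, with or without the block. The median of all tested genes was −0.056, 0.009 and 0.005 in these settings, compared with 0.015 as fitted. The causes were not tested.

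With the replicate block 0 members passed, none higher and none lower, 2 genes passed in all and 0 pathway genes did. With the block and length correction all these counts were 0. An unadjusted p under 0.05 in limma was reached with the block by 20 of 64 members and 3308 of 12255 tested genes. With the block and length correction it was reached by 18 members and 2723 genes. Deviations of same-numbered libraries had r of 0.03, −0.07 and −0.10, and those of different-numbered ones −0.10 to 0.15. With 3 libraries per group these values cannot decide whether same-numbered libraries share a preparation.

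Leaving out 1 library gave 0 to 12 members (higher 0 to 11, lower 0 to 1), 3 to 1215 genes in all, 0 to 3 pathway genes and a median of 0.076 to 0.114. With length correction as well it gave 0 to 1 members, 3 to 81 genes, 0 pathway genes and a median of 0.046 to 0.063. The highest counts were those without Mock library 3. In these fits with 2 libraries in a group the spread was shared between groups.

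Sign changes among the named genes were all in genes that did not pass as fitted. *Eif2ak1* was −0.0081 with median ratio scaling, −0.073 with a common sum and −0.0061 with quantile normalization (−0.044 to 0.039 with 1 library left out). *Eif2ak2* was −0.051 with a common sum (−0.0085 to 0.058), *Eif4a2* −0.049 with a common sum and −0.019 with quantile normalization (−0.0043 to 0.049), *Eif5a2* −0.0024 with a common sum, *Eef1a1* −0.046 with quantile normalization, and *Eef2* −0.036, −0.13 and, with length correction with or without the block, −0.0041. With length correction, with or without the block, *Eif2ak3* was 0.0075 (−0.070 to 0.015), *Eif4g2* 0.00083 (−0.29 to 0.051) and *Eif4ebp2* 0.0035 (−0.073 to 0.038). Of the log2 ratios of pairs, *Eif4g1* to *Eif4g2* was 0.016 with quantile normalization (−0.11 to 0.20), and *Eef1a1* to *Eef1a2* ranged from −0.24 to 0.033.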
